A study of Mus musculus with 4 samples.

Results

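The binding of Sox2 carrying a HaloTag, called Halo-Sox2, was set beside the binding of the untagged endogenous protein in D3 mouse embryonic stem cells, a line derived from blastocysts. Each protein was mapped in 1 ChIP-exo library. Halo-Sox2 was captured on HaloLink resin and endogenous Sox2 with an antibody against Sox2, so the way of capture changed together with the protein and the 2 cannot be told apart. The promoter that drove the fusion, its level and whether endogenous Sox2 remained beside it were not stated. The data are lists of peak positions with no height, read number or score. Peaks on mitochondrial DNA, on unplaced or random sequence and in every 100-kb bin that held 15 or more peaks in any of the 4 libraries of the study were left out. This kept 5829 of 6558 Halo-Sox2 peaks and 6364 of 7153 endogenous Sox2 peaks, 12193 of the 29255 peaks of the whole study. The other libraries of the study, the altered fusions Halo-Sox2M and Halo-Sox2D, served only to find such bins and, once below, as further resin libraries. By their titles, Halo-Sox2M carries the changes M47G:F50:M51G and Halo-Sox2D keeps Sox2 up to residue 120. Peaks were 1 to 20 bp wide, with a median of 11 bp in both lists.

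Sox2 is a transcription factor that binds the minor groove of DNA through its HMG box and bends it. In embryonic stem cells it binds many enhancers together with Oct4, the product of Pou5f1, on joined HMG and octamer words, and holds the cells pluripotent. ChIP-exo digests captured DNA with an exonuclease up to the crosslinked protein, so a bound place can yield several narrow peaks where a standard ChIP yields a single broad one. HaloTag is an enzyme-derived tag that bonds covalently to its ligand on the resin. With 1 library per protein no difference could be set against the spread of replicates, and p-values are not given. Brackets hold 95% Wilson intervals over peaks, sites, windows or genes. They cover counting error alone and treat neighbouring peaks as independent, which they are not. Read depth and calling threshold are unknown, and their part in any difference was not tested. The lists hold no expression values, so the cell type was not checked by markers.

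Places where both proteins were mapped to the same promoter show what the lists contain. Of 21263 RefSeq promoter windows (GRCm38.p6, equal to mm10 in its primary chromosomes), which run from 250 bases before to 50 bases after a transcript start, 195 held a Halo-Sox2 peak centre (0.917%) and 119 an endogenous Sox2 peak centre (0.56%). Both proteins had a centre in 16 windows (0.0752%), which belong to 14 genes. They are Nanog, a core pluripotency factor; Stat3, the effector of LIF signalling; Neurog1, a proneural factor; Kdm3a, a histone H3 lysine demethylase; Mobp, a myelin protein; and Cenpl, Cnpy1, Fbxo27, Phb, Ppp1r18, Ptma, Stk38, Utp3 and Zfp428. The 6 windows printed here were chosen after their values were seen, to show close overlap (Nanog, Neurog1), interleaved peaks (Mobp, Stat3, Kdm3a) and a promoter with endogenous Sox2 alone (Pipox). They read from 5′ to 3′ on the strand of the gene, and capitals mark bases covered by a peak of either protein.
Nanog, chr6:122707315-122707614, plus strand: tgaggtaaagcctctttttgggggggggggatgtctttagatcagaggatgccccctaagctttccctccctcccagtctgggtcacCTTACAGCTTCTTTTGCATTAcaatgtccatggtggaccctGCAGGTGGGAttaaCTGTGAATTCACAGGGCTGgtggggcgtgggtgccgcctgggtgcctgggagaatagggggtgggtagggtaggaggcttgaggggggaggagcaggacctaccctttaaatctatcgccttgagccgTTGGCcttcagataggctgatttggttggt
Neurog1, chr13:56252131-56252430, minus strand: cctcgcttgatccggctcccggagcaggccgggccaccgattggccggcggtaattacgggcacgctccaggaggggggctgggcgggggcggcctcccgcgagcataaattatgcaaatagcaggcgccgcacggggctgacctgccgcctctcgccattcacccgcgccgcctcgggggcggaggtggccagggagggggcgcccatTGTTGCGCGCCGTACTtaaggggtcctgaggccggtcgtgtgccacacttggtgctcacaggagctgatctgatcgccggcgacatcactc
Mobp, chr9:120149492-120149791, plus strand: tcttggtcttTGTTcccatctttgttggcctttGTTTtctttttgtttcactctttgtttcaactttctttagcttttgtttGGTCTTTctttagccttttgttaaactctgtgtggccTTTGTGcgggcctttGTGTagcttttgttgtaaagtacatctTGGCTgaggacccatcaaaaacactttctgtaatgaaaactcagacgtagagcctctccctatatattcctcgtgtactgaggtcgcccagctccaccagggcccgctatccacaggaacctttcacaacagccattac
Stat3, chr11:100939491-100939790, minus strand: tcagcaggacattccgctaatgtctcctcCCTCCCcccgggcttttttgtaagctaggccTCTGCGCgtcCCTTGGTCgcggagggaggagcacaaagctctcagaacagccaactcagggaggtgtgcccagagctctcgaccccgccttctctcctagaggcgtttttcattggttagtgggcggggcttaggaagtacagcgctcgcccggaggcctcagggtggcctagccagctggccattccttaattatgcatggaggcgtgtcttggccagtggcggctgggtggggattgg
Kdm3a, chr6:71609090-71609389, minus strand: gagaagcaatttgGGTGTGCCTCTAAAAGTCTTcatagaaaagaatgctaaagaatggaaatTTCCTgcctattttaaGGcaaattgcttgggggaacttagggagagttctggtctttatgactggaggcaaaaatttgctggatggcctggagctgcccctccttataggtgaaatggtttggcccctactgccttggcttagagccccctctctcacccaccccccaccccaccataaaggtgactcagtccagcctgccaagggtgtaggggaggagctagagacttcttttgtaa
Pipox, chr11:77893823-77894122, minus strand: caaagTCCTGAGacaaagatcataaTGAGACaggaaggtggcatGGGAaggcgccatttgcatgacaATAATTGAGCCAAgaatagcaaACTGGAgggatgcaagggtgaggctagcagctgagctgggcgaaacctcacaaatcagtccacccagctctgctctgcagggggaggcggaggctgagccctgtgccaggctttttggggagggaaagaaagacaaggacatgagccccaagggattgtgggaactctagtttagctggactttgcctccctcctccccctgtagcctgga

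The promoter sequences were searched on both strands for the HMG words ACAAAG and ACAATG and for the octamer word ATGCAAA, which can overlap with the second HMG word by its first letters. In the Nanog window, positions counted from 0 at the transcript start, the Halo-Sox2 peak covered -163 to -145 and an endogenous Sox2 peak -154 to -143. Both covered an octamer word on the opposite strand at -151 to -145, and the endogenous Sox2 peak reached the first base of the ACAATG that follows at -143 to -138. A further 3 endogenous Sox2 peaks, and no further Halo-Sox2 peak, lay downstream at -122 to -113, -108 to -90 and 20 to 24. In the Neurog1 window the Halo-Sox2 peak at -36 to -32 lay wholly within the endogenous Sox2 peak at -41 to -26, whose edge covered part of an ACAATG word on the opposite strand at -44 to -39.

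The other printed windows show offset peaks. Mobp carried 6 ACAAAG words on the opposite strand, 4 Halo-Sox2 peaks and 2 endogenous Sox2 peaks, and no peak of either protein overlapped a peak of the other. Its Halo-Sox2 peaks at -240 to -237, -217 to -214 and -116 to -113 and its endogenous Sox2 peak at -131 to -126 each overlapped such a word. In the Stat3 window the endogenous Sox2 peak at -190 to -184 lay between the Halo-Sox2 peaks at -221 to -216 and -180 to -173. The Kdm3a window had the same order, with endogenous Sox2 at -188 to -184 between Halo-Sox2 at -237 to -218 and -172 to -171, and none of the HMG or octamer words. At Pipox, a gene for a peroxisomal amine oxidase, 5 endogenous Sox2 peaks ran from -245 to -156 with no Halo-Sox2 peak.

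HMG words were more frequent in promoter windows with endogenous Sox2 than in those with Halo-Sox2. They stood in 64 of 195 windows with a Halo-Sox2 peak (32.8%, 26.6 to 39.7%), in 58 of 119 with an endogenous Sox2 peak (48.7%, 39.9 to 57.6%) and in 25.7% of all windows. In the 179 windows with Halo-Sox2 peaks alone (0.842% of all) the share was 29.1% (22.9 to 36.1%), and in the 103 with endogenous Sox2 peaks alone (0.484%) it was 44.7% (35.4 to 54.3%). These intervals overlapped slightly. Of the 16 windows with both, 12 held such a word. Nanog and Ppp1r18 each gave overlapping windows with the same words, so these words were counted more than once. The same holds for the octamer word of Nanog. The octamer word was found in 7.69% of windows with Halo-Sox2 (4.72 to 12.3%), 10.1% of windows with endogenous Sox2 (5.86 to 16.8%), 4 of the 16 with both and 4.23% of all windows. A match is a string in the window and no evidence of binding to it.

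Within these windows a larger share of endogenous Sox2 centres also lay close to a word. All centres were counted, also those in windows without a word, and windows with endogenous Sox2 held a word more often. Distances in windows that hold a word were not compared. Of the Halo-Sox2 centres, 28 of 194 (14.4%, 10.2 to 20.1%) were within 20 bp of an HMG word, against 35 of 126 endogenous Sox2 centres (27.8%, 20.7 to 36.2%) and 3.90% of all positions of all windows. The median number of CpG dinucleotides per window was 19 with Halo-Sox2, 18 with endogenous Sox2 and 13 over all windows.

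The lists differed in clustering. A neighbour of the same list within 500 bp, measured between peak centres, was found for 20.9% of Halo-Sox2 peaks (1219 of 5829, 19.9 to 22.0%) and for 47.7% of endogenous Sox2 peaks (3033 of 6364, 46.4 to 48.9%). The gap was already present at short range. Within 50 bp the shares were 11.0% of Halo-Sox2 peaks and 33.1% of endogenous Sox2 peaks. Within 20 bp they were 3.35% of Halo-Sox2 peaks and 10.3% of endogenous Sox2 peaks. The altered fusions, captured on the same resin, had shares within 500 bp of 16.7% (Halo-Sox2M, 954 peaks) and 19.0% (Halo-Sox2D, 13241 peaks), against the 47.7% of endogenous Sox2. These fusions also differ from Halo-Sox2 in the protein, and the parts of capture, protein and list length in these shares were not tested.

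Joining centres within 500 bp gave 5148 sites of Halo-Sox2 and 4503 sites of endogenous Sox2. Halo-Sox2, with fewer peaks, therefore had more sites, with 1.13 peaks per site, against 1.41 peaks per site of endogenous Sox2. Sites of 2 or more peaks made up 10.5% of Halo-Sox2 sites (538, 9.64 to 11.3%) and 26.0% of endogenous Sox2 sites (1172, 24.8 to 27.3%). Sites of 4 or more peaks were 0.505% of Halo-Sox2 sites (26) and 3.51% of endogenous Sox2 sites (158), and the fullest site held 6 Halo-Sox2 or 10 endogenous Sox2 peaks. The median width of a site with several peaks, from its first to its last centre, was 65 bp for Halo-Sox2 and 60 bp for endogenous Sox2, so the added endogenous Sox2 peaks stood in a space of similar width.

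**Figure D1:**
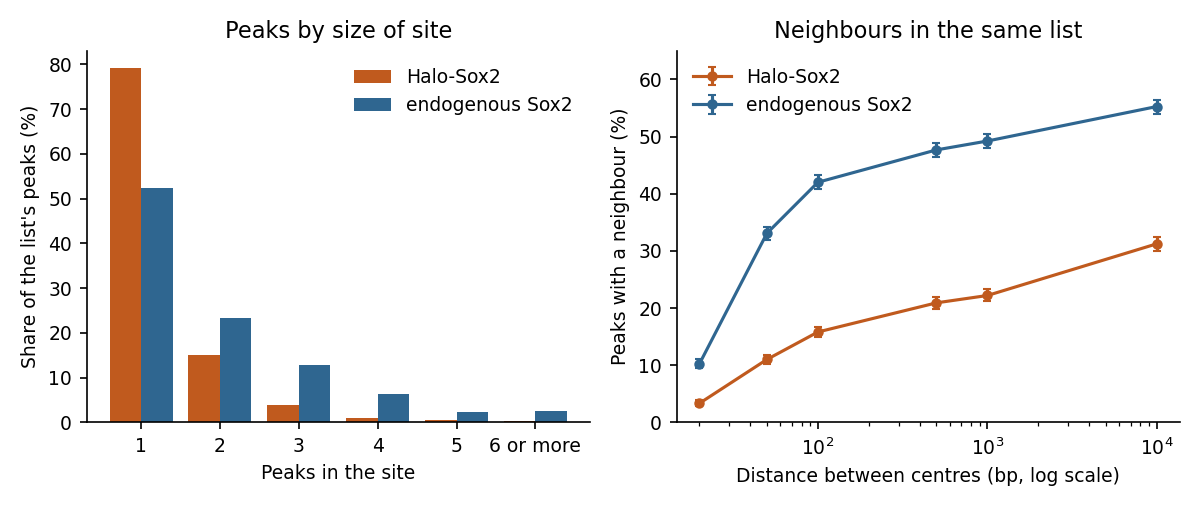
Left, share of each list's peaks (%) by the number of peaks in their site, Halo-Sox2 beside endogenous Sox2; right, share of peaks (%) with another centre of the same list within a distance in bp on a log axis, points with 95% Wilson intervals. Peaks that stand alone make up 79.1% of the Halo-Sox2 list and 52.3% of the endogenous Sox2 list, and the curve of Halo-Sox2 stays below that of endogenous Sox2 at each distance plotted.

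At the scale of sites rather than peaks the lists gave similar values. Another site of the same list lay within 10 kb of 14.0% of Halo-Sox2 sites (13.1 to 15.02%) and of 15.4% of endogenous Sox2 sites (14.3 to 16.5%). Within 100 kb the shares were 52.0% of Halo-Sox2 sites and 51.7% of endogenous Sox2 sites, and the median distance between neighbouring sites was 90.1 kb for Halo-Sox2 and 93.1 kb for endogenous Sox2. The lists thus differed in the number of peaks at a site, while distances between sites were similar as counted. These distances also depend on the number of sites, which was larger for Halo-Sox2 and was not adjusted for.

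Neighbouring peaks of a site were spaced most often by 20 to 30 bp in both lists, but less sharply so for Halo-Sox2. Of its 681 spacings 14.8% fell in that 10-bp class, against 22.7% of the 1861 endogenous Sox2 spacings. The median spacing was 49 bp for Halo-Sox2 (quartiles 27 and 101 bp) and 36 bp for endogenous Sox2 (quartiles 23 and 63 bp). The Halo-Sox2 distribution had the longer tail, with 9.54% of spacings above 200 and up to 500 bp (7.56 to 12.0%), against 3.82% for endogenous Sox2 (3.04 to 4.78%). Larger sites could themselves shorten the spacing, so sites of exactly 2 peaks were taken apart. Their median spacing was 52 bp over 436 Halo-Sox2 sites and 40 bp over 741 endogenous Sox2 sites.

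**Figure D2:**
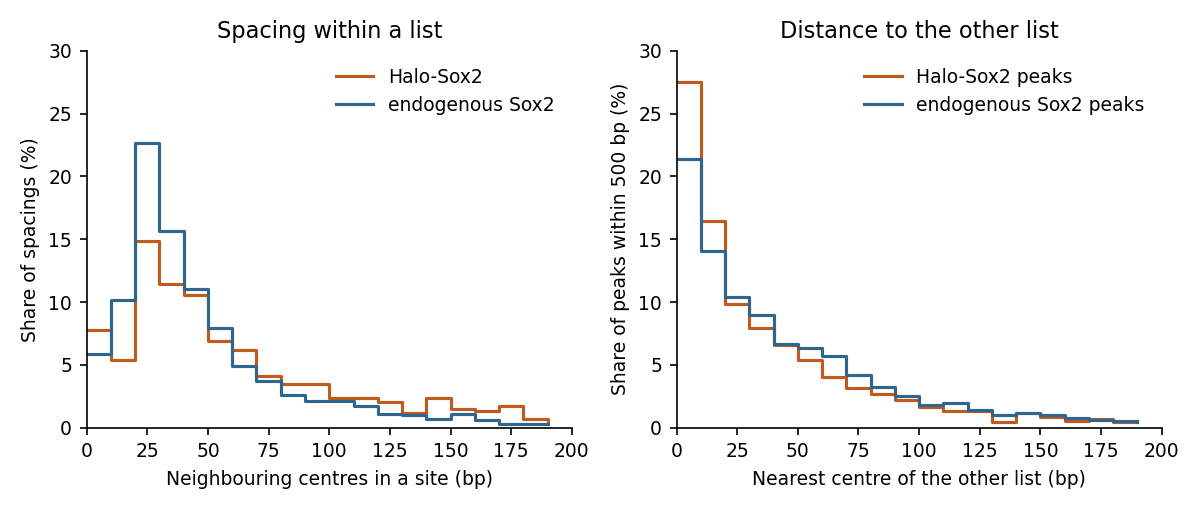
Left, share of spacings (%) between neighbouring centres of a site in 10-bp classes for each list; right, share (%) of the peaks that have a centre of the other list within 500 bp, by that distance in 10-bp classes, cut at 200 bp. The left curves peak at 20 to 30 bp for Halo-Sox2 and for endogenous Sox2, while the right curves are highest in the first class.

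Peaks of the 2 proteins met at a minority of places. A centre of the other list lay within 500 bp of 25.2% of Halo-Sox2 peaks (1467, 24.1 to 26.3%) and of 29.8% of endogenous Sox2 peaks (1897, 28.7 to 30.9%). Where they met they met closely: the median distance was 25 bp from Halo-Sox2 peaks and 34 bp from endogenous Sox2 peaks, and among peaks with a partner 69.2% of Halo-Sox2 and 62.3% of endogenous Sox2 peaks had it within 50 bp. Overlap of the narrow peaks themselves was rarer, at 398 Halo-Sox2 peaks (6.83%) and 404 endogenous Sox2 peaks (6.35%), and 2 peaks had identical coordinates in both lists. Both lists were made from DNA of the same cell line, and mappability that they share was not tested.

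Sites with more peaks met the other protein more often. Halo-Sox2 sites of 1, 2, 3 and 4 or more peaks had endogenous Sox2 within 500 bp in 17.1%, 50.5%, 68.4% and 73.1% of cases, the last over 26 sites. Endogenous Sox2 sites of those sizes had Halo-Sox2 within 500 bp in 18.8%, 32.8%, 40.7% and 62.7% of cases. A larger site also covers more sequence, and its part in this increase was not tested. Joined over both lists there were 8570 sites, of which 1079 (12.6%) held both proteins, 4068 held Halo-Sox2 alone and 3423 held endogenous Sox2 alone. The sites with both were 21.0% of those with Halo-Sox2 and 24.0% of those with endogenous Sox2.

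The difference in clustering was seen inside shared sites as well. There, Halo-Sox2 had 1.36 peaks per site and endogenous Sox2 1.76, and 2 or more peaks stood in 27.1% of these sites for Halo-Sox2 (24.5 to 29.8%) and in 42.0% for endogenous Sox2 (39.1 to 45.0%). Halo-Sox2 had more peaks in 163 of the 1079 shared sites, endogenous Sox2 had more in 363, and 553 held as many of each. In sites of a single protein, Halo-Sox2 showed 2 or more peaks in 6.07% and endogenous Sox2 in 21.0%. Peaks of the proteins were interleaved in part. In shared sites with several endogenous Sox2 peaks, 45.9% of Halo-Sox2 peaks (310 of 676) lay between the outermost of these. In shared sites with several Halo-Sox2 peaks, 48.7% of endogenous Sox2 peaks (296 of 608) lay between the outermost of those. The remaining peaks lay outside, and the share to be expected without any relation of the lists was not computed.

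Of the 10 fullest shared sites 4 lay inside a protein-coding gene and the other 6 were 7.035 to 43.1 kb from the nearest. The fullest, at chr10:21102012-21102303, 21.7 kb beyond the end of Ahi1, a gene for a ciliary protein, had 6 Halo-Sox2 and 6 endogenous Sox2 peaks in 292 bp. Inside Abca4, a retinal lipid transporter, 5 Halo-Sox2 and 6 endogenous Sox2 peaks stood in 189 bp (chr3:122145481-122145669). Near Ppp1r12a, a subunit of myosin phosphatase, there were 6 Halo-Sox2 and 5 endogenous Sox2 peaks, and near the zinc finger gene Zfp640 6 Halo-Sox2 and 4 endogenous Sox2 peaks. Other full sites leaned to the antibody list: 2 Halo-Sox2 against 9 endogenous Sox2 peaks inside Tnfsf11, which encodes the cytokine RANKL. The sites near Ly6c2, near Vwa3b, in Accsl, near Spry2 and in Dnah8 held 1 to 3 Halo-Sox2 and 5 to 8 endogenous Sox2 peaks each. None of these 10 sites was in a 100-kb bin with more than 11 peaks of any list. Whether any of them lies in duplicated sequence was not tested.

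Peaks at promoters made up a larger share of the Halo-Sox2 list. Within 1 kb of a transcript start lay 7.75% of Halo-Sox2 peaks (452, 7.10 to 8.47%) and 4.40% of endogenous Sox2 peaks (280, 3.92 to 4.93%). Starts and strands were known for 17492 genes. Within 250 bp of the nearest start the shares were 4.03% of Halo-Sox2 peaks (3.56 to 4.57%) and 2.34% of endogenous Sox2 peaks (2.00 to 2.74%). Transcript ends showed a smaller gap whose intervals overlapped, 1.72% of Halo-Sox2 peaks (1.41 to 2.08%) against 1.43% of endogenous Sox2 peaks (1.17 to 1.75%). Inside a protein-coding gene and beyond 1 kb of its ends lay 40.5% of Halo-Sox2 and 40.1% of endogenous Sox2 peaks. At 10 to 50 kb from the nearest gene the share was lower for Halo-Sox2, 16.8% (15.9 to 17.8%), against 19.3% of endogenous Sox2 peaks (18.3 to 20.3%).

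The excess at starts was found in Halo-Sox2 sites without endogenous Sox2. Of these sites 9.34% were within 1 kb of a start (380 of 4068, 8.48 to 10.3%), of sites with both proteins 3.52% (38 of 1079, 2.58 to 4.80%) and of sites with endogenous Sox2 alone 5.23% (179 of 3423, 4.53 to 6.03%). The first interval lay above the other two, which overlapped. Sites at starts were also mostly of 1 peak. Among Halo-Sox2 sites of 1, 2 and 3 or more peaks, 8.42%, 6.19% and 1.96% (2 of 102) were at a start, and among endogenous Sox2 sites 5.46%, 2.97% and 3.02%. Single-peak sites taken alone therefore still gave the higher share to Halo-Sox2, 8.42% (7.65 to 9.25%) against 5.46% for endogenous Sox2 (4.74 to 6.29%).

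**Figure D3:**
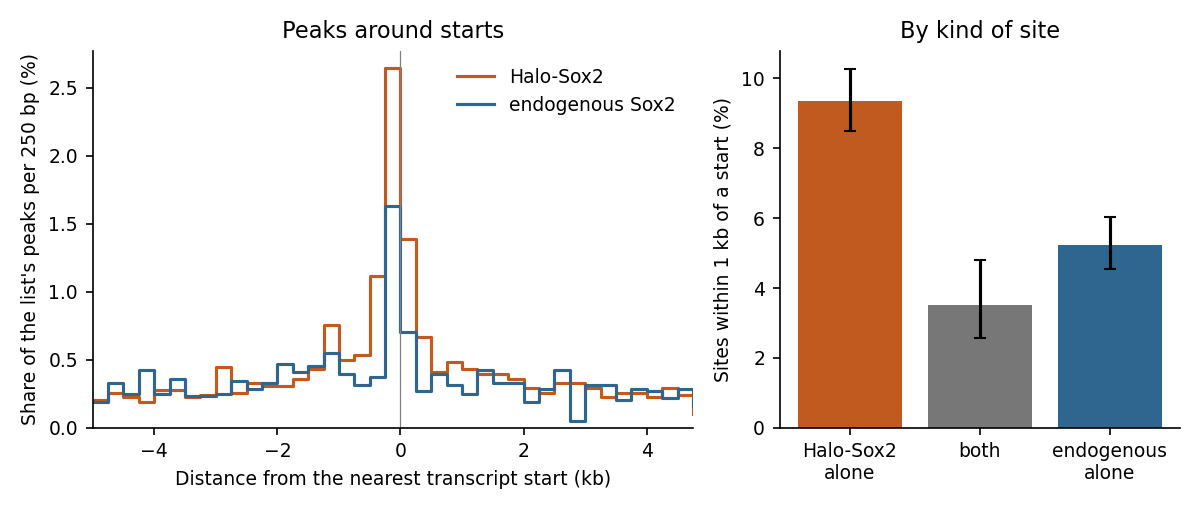
Left, share of each list's peaks (%) per 250 bp by distance in kb from the nearest transcript start, upstream negative; right, share of sites (%) within 1 kb of a start, bars with 95% Wilson intervals, for sites of Halo-Sox2 alone, of both proteins and of endogenous Sox2 alone. Both profiles rise at the start, and the bar for Halo-Sox2 alone, 9.34%, stands above 3.52% for both and 5.23% for endogenous Sox2 alone.

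Genes of tRNA, snRNA and miRNA had more Halo-Sox2 peaks as well. Within 1 kb of a tRNA gene lay 55 Halo-Sox2 peaks, at 76 of 408 tRNA genes, against 23 endogenous Sox2 peaks at 38 of them. For snRNA genes the counts were 32 Halo-Sox2 peaks at 26 of 1004 genes (2.59%) and 13 endogenous Sox2 peaks at 9 (0.896%). For miRNA genes they were 20 Halo-Sox2 peaks at 18 of 1228 genes (1.47%) and 8 endogenous Sox2 peaks at 13 (1.06%), a smaller gap in genes. Protein-coding genes, counted with their whole bodies and the same reach, had a Halo-Sox2 peak at 10.6% and an endogenous Sox2 peak at 8.32%. Genes of snoRNA had 4 Halo-Sox2 and 5 endogenous Sox2 peaks. Ends of long noncoding RNA genes had 278 Halo-Sox2 peaks within 1 kb (4.77% of the list) and 304 endogenous Sox2 peaks (4.78%). With whole bodies and the same reach, 636 of these 12727 genes had a Halo-Sox2 peak and 564 an endogenous Sox2 peak. Several of the small RNA genes lie in multi-copy families, and the treatment of reads that map to several places was not stated.

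By chromosome the lists were close to evenly mixed. Halo-Sox2 gave 47.8% of the 12193 peaks and 53.3% of the sites counted in each list. Its share of peaks was lowest on chromosome 1 (42.3%, exact interval 39.0 to 45.7%) and, among chromosomes with over 100 peaks, highest on X (114 Halo-Sox2 and 79 endogenous Sox2 peaks, 59.1%, 51.8 to 66.1%) and chromosome 14 (54.5%, 50.7 to 58.3%). Counted in sites, chromosome 1 returned to 50.2%, within its interval of the share over all chromosomes, while chromosome 14 stayed higher at 60.0% (55.6 to 64.3%). For X the share of sites was 59.2%, with an interval (51.4 to 66.7%) that included the share over all chromosomes. Y held 13 Halo-Sox2 and 2 endogenous Sox2 peaks.

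To describe genes, each peak was given to the nearest protein-coding gene within 50 kb, which took 82.2% of Halo-Sox2 and 82.1% of endogenous Sox2 peaks. Of 21887 genes, 3269 had a Halo-Sox2 peak (14.9%) and 2841 an endogenous Sox2 peak (13%). Peaks of both fell to 1354 genes (6.19%), Halo-Sox2 alone to 1915 (8.75%) and endogenous Sox2 alone to 1487 (6.79%). The shared genes were 41.4% of those with Halo-Sox2 and 47.7% of those with endogenous Sox2, and 808 of the 1354 had both proteins in the same site. In the other shared genes no site held both. Halo-Sox2 touched more genes with fewer peaks each: 71.8% of its genes had 1 peak, against 60.0% of the genes of endogenous Sox2.

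A difference of 3 or more peaks was found at 117 genes in favour of Halo-Sox2 (0.535%) and at 284 in favour of endogenous Sox2 (1.3%). Counting sites in place of peaks, an alternative chosen after seeing the data, turned this round to 55 genes with 3 or more sites more in Halo-Sox2 and 45 in endogenous Sox2.

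Long genes had peaks more often in both lists. Over 5 classes of equal size from the shortest to the longest genes, the share with a Halo-Sox2 peak was 5.34%, 8.73%, 12.6%, 17.7% and 30.3%, and with an endogenous Sox2 peak 4.34%, 7.77%, 10.3%, 14.3% and 28.2%. Halo-Sox2 was ahead in each class, with intervals that did not overlap in the classes from 11.7 to 57.1 kb. Among 165 families of genes with a common symbol prefix, the Sox genes had Halo-Sox2 peaks at 9 of 19 members and endogenous Sox2 peaks also at 9 (47.4% in each list, against 14.9% of all genes for Halo-Sox2 and 13% for endogenous Sox2), with 24 Halo-Sox2 and 22 endogenous Sox2 peaks. The Klf genes, zinc finger factors that include regulators of pluripotency, had Halo-Sox2 peaks at 10 and endogenous Sox2 peaks at 7 of 17 members, with 16 Halo-Sox2 and 27 endogenous Sox2 peaks. Kinesin genes (Kif) had Halo-Sox2 peaks at 9 of 38 members (23.7%, 13.0 to 39.2%) and endogenous Sox2 peaks at 2 (5.26%, 1.46 to 17.3%). Claudins (Cldn), proteins of tight junctions, had Halo-Sox2 peaks at 2 of 35 members (5.71%, 1.58 to 18.6%) and endogenous Sox2 peaks at 8 (22.9%, 12.1 to 39.0%). For both families the intervals of Halo-Sox2 and of endogenous Sox2 included the shares over all genes. Olfactory receptor genes (Olfr) were rarely marked, by Halo-Sox2 at 31 of 1110 (2.79%) and by endogenous Sox2 at 20 (1.80%). Families were not tested, and those named besides Sox and Klf were chosen after their values were seen.

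Pluripotency genes had peaks of both proteins far more often than genes at large, with endogenous Sox2 ahead. Of 35 such genes 22 had a Halo-Sox2 peak and 27 an endogenous Sox2 peak, with medians of 1 Halo-Sox2 and 2 endogenous Sox2 peaks per gene. Over all genes the shares were 14.9% for Halo-Sox2 and 13% for endogenous Sox2, and the medians 0. Their peaks numbered 49 for Halo-Sox2 and 110 for endogenous Sox2. In sites the difference was smaller, 39 of Halo-Sox2 against 56 of endogenous Sox2. A lead of 3 or more peaks was held by Halo-Sox2 at 1 of these genes, Tbx3, a T-box factor of naive cells (3 Halo-Sox2 and 0 endogenous Sox2 peaks), and by endogenous Sox2 at 11. Among all protein-coding genes Halo-Sox2 held such a lead at 0.535% and endogenous Sox2 at 1.3%.

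At Pou5f1 (chr17:35506032-35510777, plus strand) there were 3 Halo-Sox2 peaks in 2 sites and 10 endogenous Sox2 peaks in 3 sites, none inside the gene. The last Halo-Sox2 peak lay 6 bp from an endogenous Sox2 peak, 0.86 kb upstream, in a site of 2 Halo-Sox2 and 5 endogenous Sox2 peaks (chr17:35504760-35505182). The first, 2.98 kb upstream, was 957 bp from any endogenous Sox2 peak. Endogenous Sox2 peaks with no Halo-Sox2 peak within 500 bp stood at 1.89 to 2.02 kb and at 15.5 kb upstream.

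At Sox2 itself (chr3:34649995-34652461, plus strand) the counts were nearly level, 3 Halo-Sox2 and 4 endogenous Sox2 peaks, yet the places differed. The nearest centres of the proteins were 500 bp apart, just at the limit of a shared site. Inside the gene lay 1 Halo-Sox2 and 0 endogenous Sox2 peaks. Halo-Sox2 had a pair of peaks 16.1 to 16.2 kb beyond the end of the gene, and endogenous Sox2 a pair 1.52 to 1.56 kb beyond it. At Nanog (chr6:122707489-122714633, plus strand) the 1 Halo-Sox2 and 4 endogenous Sox2 peaks formed the single promoter site printed above.

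The nuclear receptor gene Esrrb, part of the naive pluripotency network (chr12:86361117-86521628), had 2 Halo-Sox2 and 13 endogenous Sox2 peaks, all inside the gene. The 2 Halo-Sox2 peaks stood 7 and 12 bp from endogenous Sox2 peaks in a single site (chr12:86471047-86471098). The other 10 endogenous Sox2 peaks lay 7947 to 31013 bp from any Halo-Sox2 peak. The factor genes Klf5, Mycn and Sall1 had 2 Halo-Sox2 and 9 endogenous Sox2 peaks each, but only Mycn and Sall1 had a shared site. Zfp281, a zinc finger repressor, had 0 Halo-Sox2 and 5 endogenous Sox2 peaks, and Otx2 and Tfcp2l1 0 Halo-Sox2 and 4 endogenous Sox2 peaks each. Etv5 and Prdm14 stood the other way with 4 Halo-Sox2 and 3 endogenous Sox2 peaks each, and Utf1 had 3 of each.

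Signalling genes of the stem cell state were also marked above the shares over all genes, 14.9% for Halo-Sox2 and 13% for endogenous Sox2. These lists are not independent of the pluripotency list. Etv5 of the FGF and ERK list and Tfcp2l1, Klf4, Myc and Gbx2 of the LIF and STAT3 list stand in it too. In the FGF and ERK list 13 of 28 genes had a Halo-Sox2 and 16 an endogenous Sox2 peak. Spry2, an inhibitor of receptor tyrosine kinase signalling (chr14:105891947-105896819), had more peaks of both lists together than any other named gene, 11 of Halo-Sox2 and 17 of endogenous Sox2, none inside it and 4 sites shared. Fgfr2, an FGF receptor, had 3 of each, and Fgf15, an FGF ligand, 1 Halo-Sox2 and 4 endogenous Sox2 peaks. In the LIF and STAT3 list Halo-Sox2 marked 7 and endogenous Sox2 11 of 15 genes, with 10 Halo-Sox2 and 26 endogenous Sox2 peaks. Its receptor gene Lifr had 2 Halo-Sox2 and 5 endogenous Sox2 peaks, the kinase gene Pim1 1 Halo-Sox2 and 4 endogenous Sox2 peaks, and Stat3 2 Halo-Sox2 and 1 endogenous Sox2 peaks.

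In the Wnt list Halo-Sox2 marked 9 (33.3%) and endogenous Sox2 12 (44.4%) of 27 genes. Tcf7l1, a repressor of Wnt targets, had 4 Halo-Sox2 and 6 endogenous Sox2 peaks. In the Nodal, TGF-beta and BMP list Halo-Sox2 marked 7 (25%) and endogenous Sox2 9 (32.1%) of 28 genes, with 11 sites of each. With so few genes these shares are uncertain. The inhibitory Smad7 had 0 Halo-Sox2 and 6 endogenous Sox2 peaks, and Lefty1, a Nodal antagonist, 0 Halo-Sox2 and 4 endogenous Sox2 peaks. Its neighbour Lefty2 had 2 Halo-Sox2 and 3 endogenous Sox2 peaks, and Id4, an inhibitor of helix-loop-helix factors, 3 Halo-Sox2 and 1 endogenous Sox2 peaks.

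Genes of Polycomb and other repressors had a peak as often in both lists, 15 of 36 genes in each (41.7%), 9 of them the same. Over all genes 14.9% had a Halo-Sox2 peak, 13% an endogenous Sox2 peak and 6.19% peaks of both. Halo-Sox2 had 25 peaks in 22 sites there, and endogenous Sox2 51 peaks in 26 sites. Jarid2, a subunit of Polycomb repressive complex 2 (chr13:44730774-44921643), had 4 Halo-Sox2 peaks in 4 sites and 14 endogenous Sox2 peaks in 5 sites, with 2 sites shared. Mtf2, another accessory subunit, had 3 Halo-Sox2 and 8 endogenous Sox2 peaks. Phc1, of Polycomb repressive complex 1, had 4 Halo-Sox2 and 7 endogenous Sox2 peaks, and Tet2, a DNA demethylation enzyme, 3 Halo-Sox2 and 4 endogenous Sox2 peaks. Halo-Sox2 led by 3 or more peaks at 0 genes of this list and endogenous Sox2 at 5. Over all genes Halo-Sox2 held such a lead at 0.535% and endogenous Sox2 at 1.3%.

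Lineage genes were mixed beside the 14.9% of all genes with Halo-Sox2 and the 13% with endogenous Sox2. Of 32 neural factor genes 11 had Halo-Sox2 peaks (34.4%) and 12 endogenous Sox2 peaks (37.5%). Rax, an eye field factor, had 2 Halo-Sox2 and 5 endogenous Sox2 peaks, and Neurog1 3 Halo-Sox2 and 2 endogenous Sox2 peaks. Trophoblast factor genes, a list that also holds Esrrb, had Halo-Sox2 peaks at 5 and endogenous Sox2 peaks at 8 of 14 genes, with 0 Halo-Sox2 and 4 endogenous Sox2 peaks at Tfap2c. Mesoderm and endoderm factor genes had Halo-Sox2 peaks at 3 of 24 genes (12.5%) and endogenous Sox2 peaks at 1 (4.17%). Housekeeping genes had Halo-Sox2 peaks at 3 of 20 (15%) and endogenous Sox2 peaks at 1 (5%). The Halo-Sox2 shares of these last 2 lists were close to that over all genes, and with so few genes the lower endogenous Sox2 shares are no result about the lists. None of 20 genes of other tissues had a peak of either protein. These lists were written with earlier results of these data known, so their shares are a description.

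**Figure D4:**
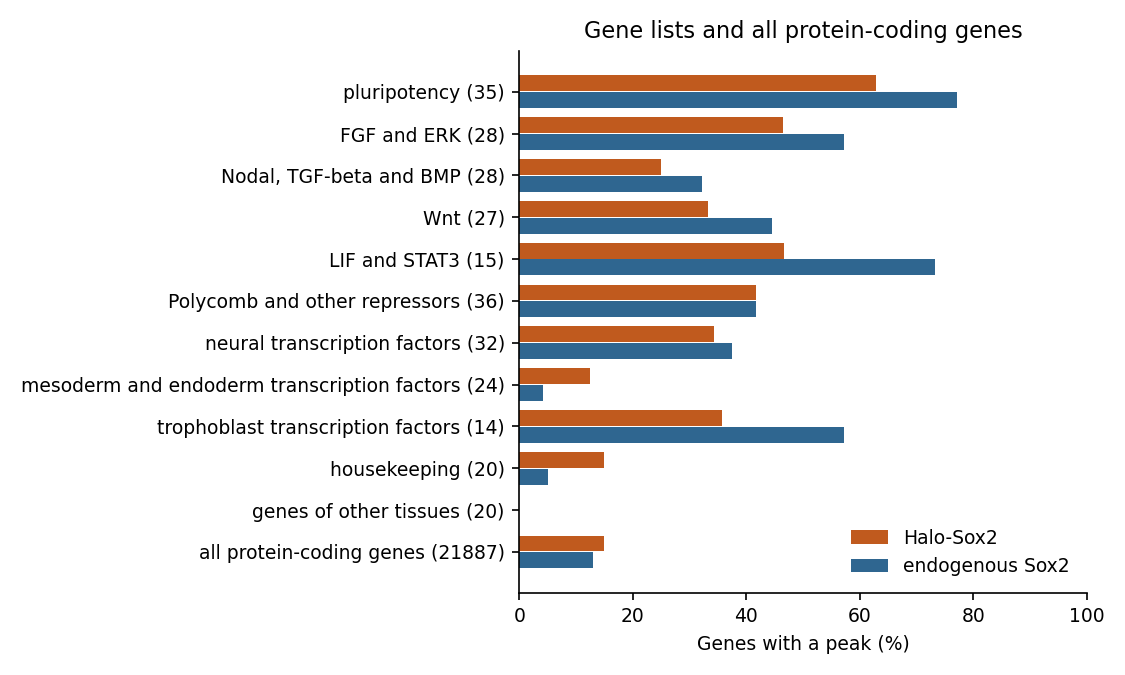
Share of genes (%) with a Halo-Sox2 or endogenous Sox2 peak in 11 gene lists and over all protein-coding genes, with the number of genes in brackets. Pluripotency genes reach 62.9% for Halo-Sox2 and 77.1% for endogenous Sox2 against 14.9% of all genes for Halo-Sox2 and 13% for endogenous Sox2, and endogenous Sox2 is ahead in 6 signalling and lineage lists besides.

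Among the genes with most peaks of both proteins were, after Spry2, several long genes. Pakap, a kinase anchoring gene of 463 kb, had 10 Halo-Sox2 and 14 endogenous Sox2 peaks, and Etl4, of 900 kb, 9 Halo-Sox2 and 11 endogenous Sox2 peaks. Dlgap1, a postsynaptic scaffold gene of 852 kb, had 9 Halo-Sox2 and 7 endogenous Sox2 peaks, so the lean was not the same in all. The axonemal dynein gene Dnah8 had 6 Halo-Sox2 and 12 endogenous Sox2 peaks, and Ahi1 7 Halo-Sox2 and 11 endogenous Sox2 peaks. Of the zinc finger genes of chromosome 4, Zfp978 had 16 Halo-Sox2 and 5 endogenous Sox2 peaks and Zfp993 11 Halo-Sox2 and 6 endogenous Sox2 peaks. Zinc finger genes of this kind have near copies, and reads could be split or shared among them, so these last counts are uncertain. At Dnah8, Halo-Sox2 peaks began at chr17:30625173, 30625600 and 30625666, and with nearly the same spacing at 30627729, 30628156 and 30628221. Several endogenous Sox2 peaks beside them recurred in the same way. Whether this sequence is duplicated was not tested, so the Dnah8 counts are uncertain too.

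Of the 10 genes that leaned most to Halo-Sox2, 8 had more Halo-Sox2 peaks than sites. After Zfp978 came Sox21, an HMG-box factor of neural cells (chr14:118233233-118237030), with 6 Halo-Sox2 and 0 endogenous Sox2 peaks in 2 sites 1.03 to 3.02 kb past the gene's end. The nearest endogenous Sox2 peak was 464895 bp away. Sez6, a neuronal membrane protein gene (chr11:77930587-77979052), and Sirt4, a mitochondrial sirtuin gene (chr5:115478006-115490264), also had 6 Halo-Sox2 and 0 endogenous Sox2 peaks each, in 4 sites at Sez6 and 3 at Sirt4. Ndufs4, of respiratory complex I, and Pls3, an actin bundler gene on X, had 5 Halo-Sox2 and 0 endogenous Sox2 peaks each, in 5 sites. Map3k9, a kinase gene, and Mpped2 had 5 Halo-Sox2 and 0 endogenous Sox2 peaks each in 4 sites. Mrgprd, a receptor gene of sensory neurons, had 5 Halo-Sox2 and 0 endogenous Sox2 peaks in a single site (chr7:145340983-145341385). BC107364 had 7 Halo-Sox2 and 2 endogenous Sox2 peaks. Some of its Halo-Sox2 peaks began at chr3:96450515 and 96450692, and with nearly the same spacing at 96459930 and 96460102. Whether this sequence is duplicated was not tested, so the BC107364 counts are uncertain.

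The 10 genes that leaned most to endogenous Sox2 each had more endogenous Sox2 peaks than sites, and all but Aida had them in 3 to 7 sites. Ppp1r9a, which encodes the actin-binding protein neurabin (chr6:4902872-5165661), had 0 Halo-Sox2 and 14 endogenous Sox2 peaks, all inside the gene in 7 sites, and the nearest Halo-Sox2 peak was 205764 bp away. Aida, an axin interactor gene (chr1:183297060-183324501), had 0 Halo-Sox2 and 10 endogenous Sox2 peaks, all in a single site at chr1:183299170-183299559, the fullest endogenous Sox2 site. Gli2, a factor of the hedgehog pathway, had 1 Halo-Sox2 peak and 11 endogenous Sox2 peaks, these in 3 sites. Myo10, a myosin of filopodia, had 2 Halo-Sox2 and 11 endogenous Sox2 peaks, and Macf1, a cytoskeletal linker, 2 Halo-Sox2 and 10 endogenous Sox2 peaks. Tbl1xr1, of a corepressor complex, had 1 Halo-Sox2 and 9 endogenous Sox2 peaks. Pipox had 0 Halo-Sox2 and 8 endogenous Sox2 peaks, and Agps, of ether lipid synthesis, 0 Halo-Sox2 and 7 endogenous Sox2 peaks. Pipox and Sez6 are neighbours on chromosome 11 and leaned opposite ways, with 29656 bp between the nearest centres of the 2 proteins.

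**Figure D5:**
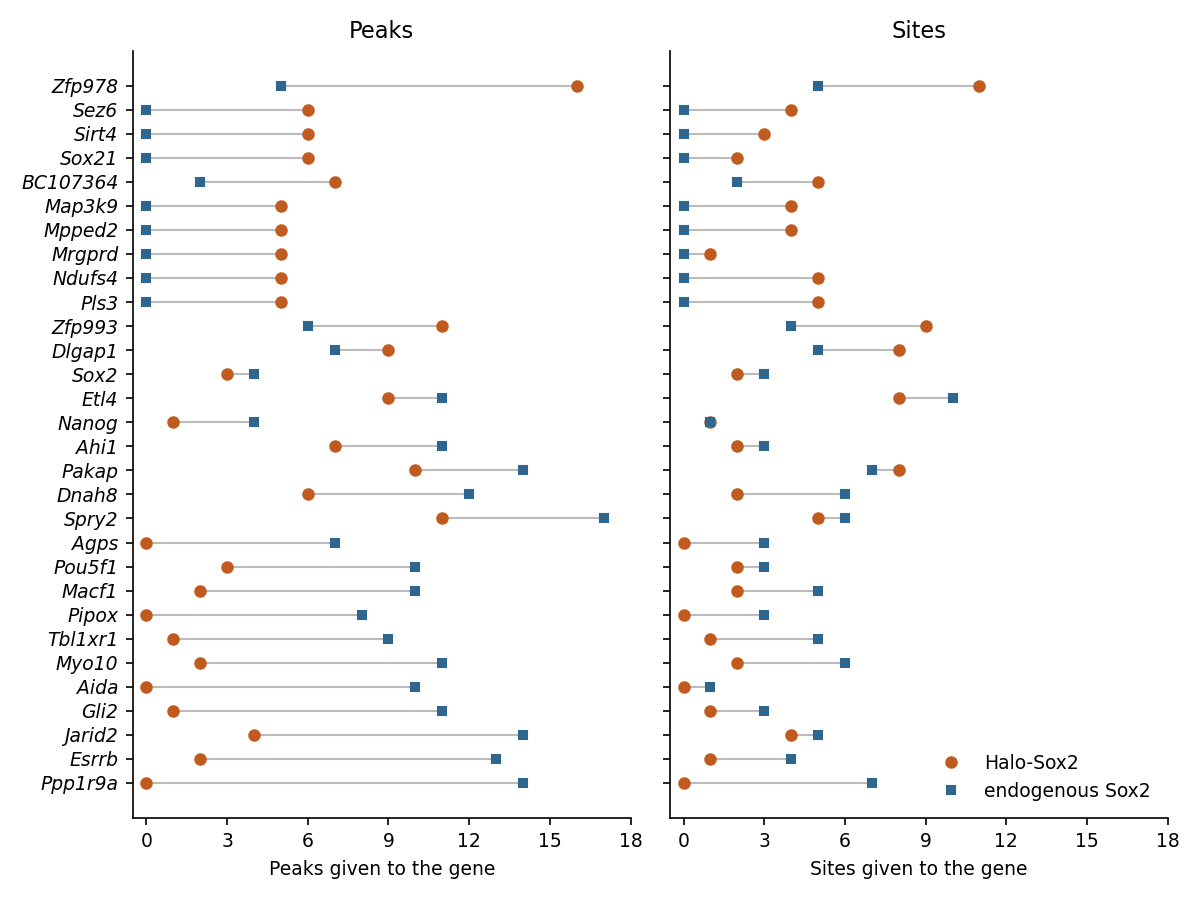
Number of peaks (left) and of sites (right) given to each named gene, a circle for Halo-Sox2 and a square for endogenous Sox2, ordered by the difference in peaks. The gap at Aida shrinks to 0 Halo-Sox2 and 1 endogenous Sox2 sites at right, where 0 Halo-Sox2 and 10 endogenous Sox2 peaks stand at left, and the gap at Jarid2 shrinks likewise.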

How the data were processed

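The authors deposited 1 peak list per library in BED form. Its start and end columns hold positions, so no count, intensity or score of binding was used. Per the labels' protocols, complexes from sonicated nuclei were isolated with antibody or resin and made into ChIP-exo libraries. The submitters' processing notes name Bowtie2 and mm10. The sources used here give no aligner version, peak caller, threshold or read filter.

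Centres are midpoints, sites join centres within 500 bp, and genes and promoters come from RefSeq tables (GRCm38.p6). Python 3.11.15, numpy 2.4.6, pandas 2.3.3 and scipy 1.17.1 were used. The code was tested on simulated lists, and overlaps of at least 1 bp were checked against bedtools 2.31.1. Samples were grouped by title, with 1 library each and no test between them.

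The members, the 11 gene lists (267 symbols, all matched) and the rules were chosen with earlier results of these data known. Named genes are Sox2, Pou5f1 and Nanog, the 10 with most peaks of both lists, the 10 leaning most to either protein, the 10 fullest shared sites, promoters with both and examples from each list. Symbols made of Gm and digits or ending in Rik were counted only, 18 and 11 of them among genes with 3 or more peaks more in Halo-Sox2 and in endogenous Sox2. Alternatives were other bins, merged peaks, distances and gene windows.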

Additional observations from a re-analysis of the deposited data

Results flagged for a closer look

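The peaks left out of the comparisons were counted by kind of sequence, and whether they mark binding was not tested. On mitochondrial DNA there were 98 Halo-Sox2 peaks, against 3 of endogenous Sox2. Unplaced and random sequence held 265 Halo-Sox2 and 338 endogenous Sox2 peaks. The 11 dense bins of 100 kb on placed chromosomes held 366 Halo-Sox2 and 448 endogenous Sox2 peaks. In all, 11.1% of Halo-Sox2 and 11.0% of endogenous Sox2 peaks were left out.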

How the results depend on the processing

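Which protein had the higher value was the same in 57 of 58 comparisons over 8 results. The exception, added after seeing the data, was counting sites in place of peaks per gene, which gave 55 genes leaning to Halo-Sox2 and 45 to endogenous Sox2. Without bins of 5 or more peaks, Halo-Sox2 had 17.6% of peaks with a neighbour in its list, 21.6% with a centre of the other list, 9.02% of sites with several peaks, 46.96% of peaks inside genes, peaks at 13.2% of genes and 75 genes leaning to it. Endogenous Sox2 had 39.8%, 25.4%, 22.2%, peaks at 11.2% of genes and 147 genes in the same settings, its share inside genes moving less. With dense bins kept, the share with a neighbour was 25.4% for Halo-Sox2 and 50.8% for endogenous Sox2, with a centre of the other list 28.3% and 32.4% of Halo-Sox2 and endogenous Sox2 peaks, and inside genes 43.4% of Halo-Sox2 and 40.7% of endogenous Sox2 peaks, while the median Halo-Sox2 spacing was 59 bp. With touching peaks merged, 19.4% of Halo-Sox2 and 45.8% of endogenous Sox2 peaks had a neighbour, at a median spacing of 56 bp for Halo-Sox2 and 39 bp for endogenous Sox2. A neighbour within 100 bp was found for 15.8% of Halo-Sox2 and 42.0% of endogenous Sox2 peaks, and within 1000 bp for 22.2% of Halo-Sox2 and 49.2% of endogenous Sox2 peaks. A centre of the other list within 50 bp was found for 17.4% of Halo-Sox2 and 18.6% of endogenous Sox2 peaks, and within 1000 bp for 26.4% of Halo-Sox2 and 31.5% of endogenous Sox2 peaks. Gene ends were within 2 kb of 16.0% of Halo-Sox2 and 11.8% of endogenous Sox2 peaks, within 5 kb of 26.4% of Halo-Sox2 and 22.5% of endogenous Sox2 peaks, and, for all annotated genes within 1 kb, of 17.0% of Halo-Sox2 and 12.5% of endogenous Sox2 peaks. Genes with a peak were 13.5% for Halo-Sox2 and 11.6% for endogenous Sox2 within 20 kb, and 15.8% for Halo-Sox2 and 13.8% for endogenous Sox2 within 100 kb. Where a peak counted for every gene in reach they were 32.3% for Halo-Sox2 and 27.3% for endogenous Sox2, and 365 genes leaned to Halo-Sox2 and 630 to endogenous Sox2. Beyond what each setting changes by construction, the cause was not tested. Another 70 alternative values moved by less than their interval or, for counts, by less than 1.5 times. No paired analysis was possible because each protein had 1 library, and for the same reason no library could be left out. Without scores in the lists, no stricter threshold could be tried. Unknown depth and threshold limit every statement on the absence of a peak.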
